A study of Mus musculus with 11 samples.

Results

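Cholesterol synthesis in the liver was described across 28 genes of the SREBP2 pathway, in mice fed a methionine- and choline-deficient (MCD) diet with or without limonin. The members were taken by gene symbol from a fixed list. They comprise 4 genes that sense sterols and process the transcription factor SREBP2, 7 enzymes of the mevalonate and isoprenoid steps, 11 enzymes from squalene to cholesterol, and 6 genes of sterol transport, esterification and lipoprotein receptors. All 28 were found among the 31280 genes of the deposited table, and all 28 passed the filter on low values, which 10489 genes passed (at least 1 FPKM in at least 5 libraries). FPKM are fragments counted relative to transcript length and library size, so levels can be compared between genes per length.

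The animals were wild-type C57BL/6 mice, all on the MCD diet for 8 weeks, a diet used to model steatohepatitis because fat is retained in hepatocytes. The MCD group (5 libraries) received water by gavage, and the limonin group (6 libraries) received limonin, a triterpenoid of citrus fruit, at 100 mg/kg by gavage for 4 weeks. Both groups share the diet, and no group on another diet was compared, so each difference is one between limonin and water on the deficient diet. Age and sex are not stated in the labels. Each library was taken as 1 animal, although the labels do not say so, and the p-values measure the spread between libraries.

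Cells hold their cholesterol within narrow limits through SREBP2, a transcription factor made as a membrane protein of the endoplasmic reticulum. When membrane sterols are low, the escort protein SCAP carries SREBP2 to the Golgi apparatus, where proteases release its active part, which then switches on the genes of sterol synthesis and uptake. When sterols are high, INSIG proteins hold SCAP back. Hepatocytes, the main cells of the liver, run this pathway at a high rate to supply lipoproteins and bile acids.

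The libraries were of similar depth: low FPKM read as single fragments implied 15460000 to 19560000 fragments per library. Summed FPKM did not overlap, at 464184 to 471623 in the MCD group and 404050 to 462665 with limonin. The first principal component of all tested genes (45.4% of the variance) separated the groups, and the second (15.3%) set limonin 5 and limonin 6 apart from limonin 1 to 4. Hepatocyte markers were abundant in every library, with Alb, which encodes albumin, at 14080 to 31230 FPKM. Markers of other cells were low, and most moved: 4 of 4 tested cholangiocyte markers, 8 of 8 of stellate cells and fibroblasts and 2 of 2 of lymphocytes fell, and 1 of 5 of endothelial cells rose (limma). Without 1 library these counts ran from 2 to 4, 6 to 8, 1 to 2 and 0 to 1. Their summed levels, with MCD first, were 20.7 to 47.1 and 10.8 to 21.7, 85.3 to 167.0 and 51.5 to 75.8, 6.16 to 11.5 and 2.85 to 6.59, and 13.4 to 24.9 and 17.99 to 26.4 FPKM, and their part in the results was not tested. Of 10489 genes tested, 25.9% were called, 7.24% higher and 18.7% lower with limonin (limma, Benjamini-Hochberg adjusted p under 0.05). The median log2 fold change over all tested genes was -0.07 and moved to 0.05 when libraries were scaled by the median ratio of genes, and higher calls then made up 57.4% of calls in place of 27.9%.

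The comparison asked whether limonin moved this pathway, step by step. Of 28 members 3 rose, 2 fell and 23 were not called, against backgrounds of 7.24% and 18.7% of all tested genes. Those that rose were Insig1, a sterol sensor, and Stard4 and Npc1, which move cholesterol inside the cell. Those that fell were Mvd, an enzyme of the mevalonate steps, and Npc2, a cholesterol-binding protein of the lysosome. Of the 18 enzymes 0 rose and 1 fell (limma). Besides Mvd, 4 of them had an unadjusted p under 0.05, Lss, Hsd17b7 and Sc5d on the higher side and Tm7sf2 on the lower, and 39.8% of all genes tested had one. The median log2 fold change of the 28 was 0.25, beside -0.07 for all genes tested, and 20 of the 28 lay above that all-gene median.

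**Figure D1:**
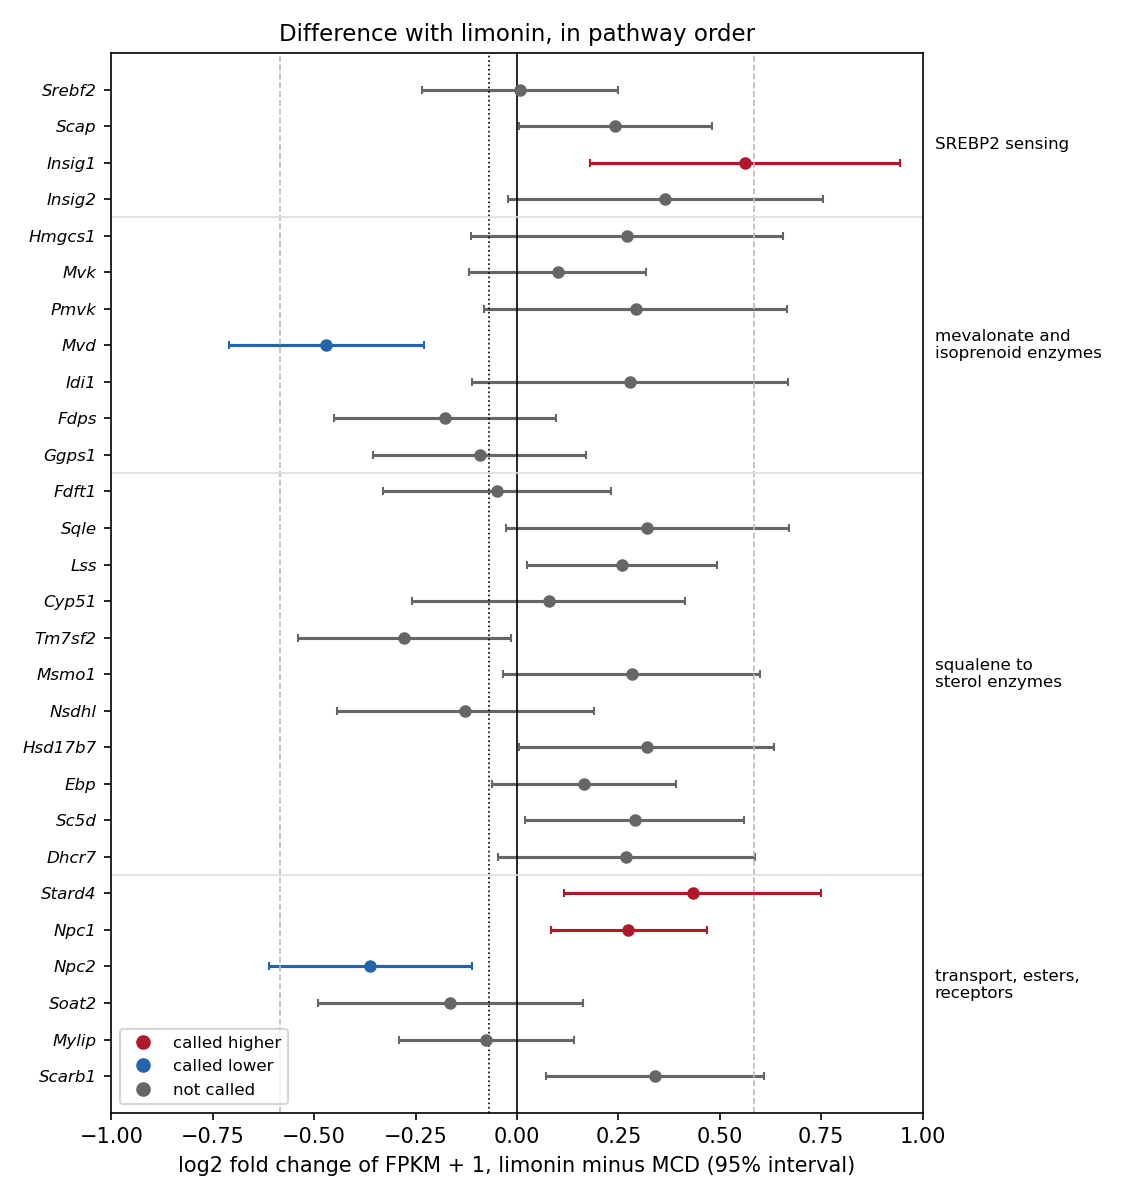
Log2 fold change of FPKM + 1 (limonin minus MCD) of the 28 genes in pathway order; points are estimates, bars 95% intervals (limma, n = 5 and 6), dashed lines mark 1.5-fold and the dotted line the median of all genes. Insig1, Stard4 and Npc1 (red) were called higher, Mvd and Npc2 (blue) lower, and the other 23 were not called.

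The sensing genes came first. Insig1 encodes an anchor that holds SCAP in the endoplasmic reticulum, and it is itself a textbook target of SREBP2. Insig1 (chromosome 5, 28071363 to 28078662, GRCm38) had 32.8, 17.99, 26.7, 28.8 and 26.8 FPKM in MCD 1 to 5, and 26.9 (lowest), 39.5 (median) and 55.8 (highest) in the limonin group. Of the 6 limonin libraries 5 lay above every MCD library, and limonin 5 was the exception. Limonin 6, at 32.84 FPKM, lay only just above MCD 1, at 32.77. The mean of Insig1 was 26.6 ± 5.41 FPKM with water (SD, n = 5) and 40.1 ± 10.1 with limonin (SD, n = 6). It rose by 0.56 ± 0.18 (SE) on the log2 scale (adjusted p = 0.0345, limma). The call was lost with no filter on low values, without both MCD 4 and MCD 5, and without any one of MCD 2, MCD 3, MCD 5, limonin 2, limonin 3 or limonin 4. In those 6 fits the adjusted p ran from 0.054 to 0.0992 and the log2 fold change was 0.43 or more.

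Insig2, the second anchor, which in liver is controlled apart from SREBP2, was not called. It ran from 13.6 to 20.04 FPKM in the MCD group and from 14.8 to 34.6 in the limonin group, and 3 of the 6 limonin values exceeded every MCD value. The log2 fold change was 0.37 ± 0.18, with a 95% interval from -0.02 to 0.76, and with median-ratio scaling it was called, at 0.51 (adjusted p = 0.0361, limma). Scap, the escort protein, had 9.91 to 11.5 FPKM in MCD and 10.7 to 16.7 with limonin, a difference of 0.24 ± 0.11 on the log2 scale (adjusted p = 0.121, limma). Scap was called higher with median-ratio scaling, at 0.38 (adjusted p = 0.045), and with length and GC trends taken out, at 0.48 (adjusted p = 0.0161). Srebf2, the gene of SREBP2 itself, had a mean of 10.1 ± 0.604 FPKM (SD, n = 5) in MCD and 10.3 ± 1.91 (SD, n = 6) with limonin. Its interval, from -0.24 to 0.25, leaves out a change of 1.5-fold either way in FPKM + 1. The estimate was 0.15 with median-ratio scaling and 0.23 with length and GC trends taken out, neither of them called. Limonin 2 and limonin 3, at 12.95 and 12.5 FPKM, lay above every MCD library, and 3 other limonin libraries lay below every MCD library. The transcript of Srebf2 does not measure the cleaved, active protein.

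**Figure D2:**
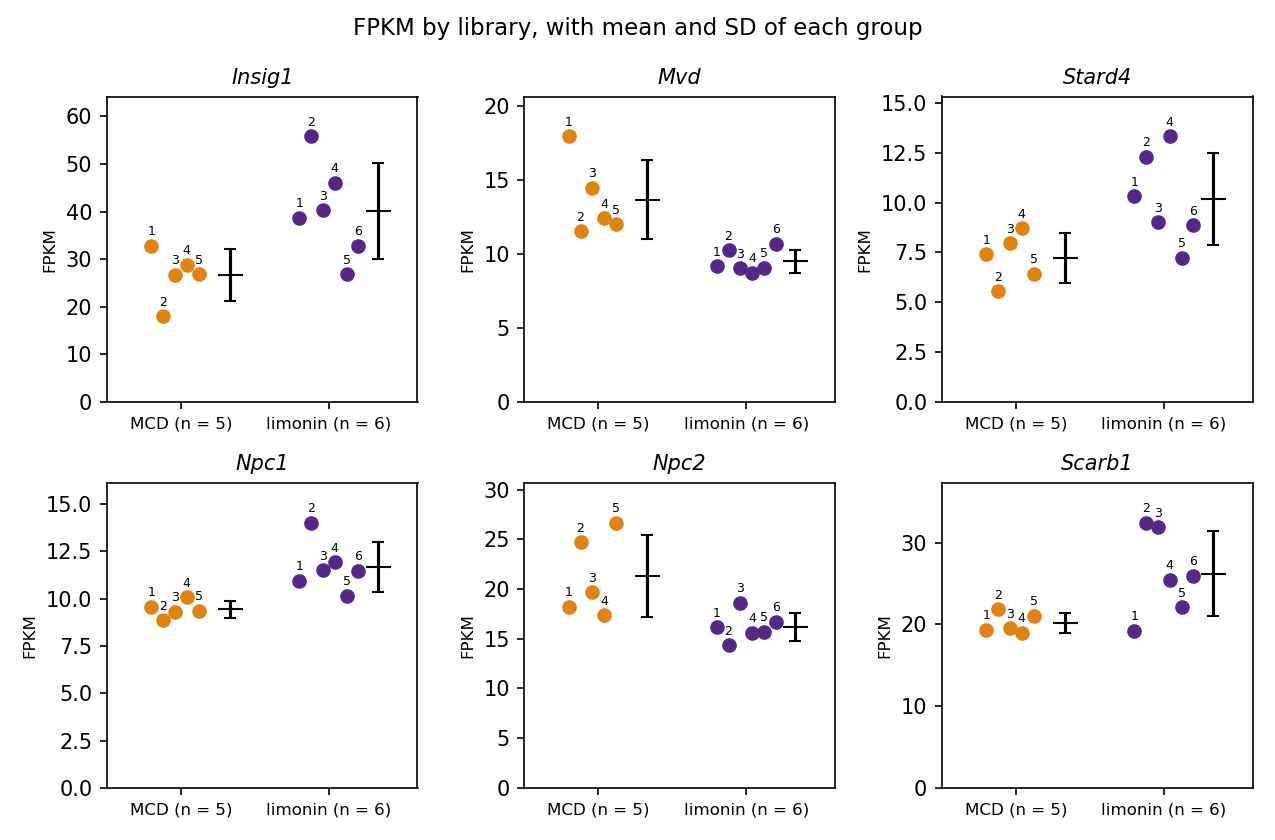
FPKM of Insig1, Mvd, Stard4, Npc1, Npc2 and Scarb1 in each library (numbers are replicate numbers), with the mean and SD of each group to the right of its points (MCD n = 5, limonin n = 6). The groups do not overlap for Mvd and Npc1; limonin 5 lies within the MCD range of Insig1 and Stard4.

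The mevalonate steps turn acetyl units into the isoprene units from which sterols are built. Mvd encodes mevalonate diphosphate decarboxylase, which makes isopentenyl diphosphate, the first isoprene unit. Mvd (chromosome 8, 122433601 to 122443422) had 17.95, 11.5, 14.5, 12.4 and 11.99 FPKM in MCD 1 to 5, and 8.74 (lowest), 9.11 (median) and 10.7 (highest) with limonin. The groups did not overlap, every limonin library being the lower, as in 8.33% of all genes tested. Its mean was 13.7 ± 2.64 FPKM with water (SD, n = 5) and 9.49 ± 0.790 with limonin (SD, n = 6). The log2 fold change was -0.47 ± 0.11 (adjusted p = 0.00992, limma). It was the one member still called in each of the 11 fits without 1 library, where the log2 fold change ran from -0.52 to -0.37. The call was lost after median-ratio scaling (-0.33, adjusted p = 0.0647) and with length and GC trends taken out (-0.21, adjusted p = 0.245), and its transcripts had the highest mean GC content of the 28 members, 59.2%.

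The enzymes on either side of Mvd were not called. Hmgcs1, which makes the HMG-CoA that enters the pathway, ran from 18.98 (MCD 2) to 38.6 FPKM (MCD 1) in the MCD group and from 23.04 (limonin 6) to 43.1 (limonin 5) with limonin, a log2 fold change of 0.27 ± 0.18. The kinases Mvk and Pmvk, which phosphorylate mevalonate in turn ahead of Mvd, had log2 fold changes of 0.10 ± 0.10 and 0.29 ± 0.17. With length and GC trends taken out both were called higher, Mvk at 0.38 and Pmvk at 0.54 (adjusted p 0.0302 and 0.043). Idi1, the isomerase just after Mvd, was at 0.28 ± 0.18. In Idi1 4 of 6 limonin libraries lay above every MCD library, and limonin 5, at 6.23 FPKM, was the lowest of all 11. Without limonin 5 the log2 fold change of Idi1 was 0.43 and the gene was called (adjusted p = 0.0249).

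Fdps, which joins isoprene units into farnesyl diphosphate, was the most abundant member per length, at 73.3 ± 14.1 FPKM in MCD and 64.1 ± 7.27 with limonin. The difference, -0.18 ± 0.13 on the log2 scale, was not called, and its interval ran from -0.45 to 0.10. Ggps1, which makes the geranylgeranyl diphosphate used to anchor small GTPases, was the least abundant. It had 1.21 ± 0.108 FPKM in MCD and 1.10 ± 0.385 with limonin, where it spread from 0.668 (limonin 6) to 1.598 (limonin 4). Between these lay a wide range of levels at neighbouring steps, with means in MCD of 10.9 FPKM for Mvk, 18.4 for Pmvk, 13.7 for Mvd and 9.29 for Idi1.

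The sterol steps start with squalene, a chain of 6 isoprene units that is closed into the ring system of lanosterol and then trimmed to cholesterol. None of the 11 enzymes was called by limma, and 4 had an unadjusted p under 0.05, a share near the 39.8% of all genes tested. Sqle, the epoxidase that commits squalene to sterols and is a control point of the pathway, had 10.7, 7.18, 8.17, 8.48 and 7.30 FPKM in MCD 1 to 5, and 7.40 (lowest), 10.8 (median) and 14.4 (highest) with limonin. The groups overlapped, 3 of the 6 limonin values exceeding every MCD value, and the log2 fold change was 0.32 ± 0.16 (adjusted p = 0.158, limma). Lss, the cyclase that forms lanosterol, had 4.19 ± 0.685 FPKM in MCD and 5.21 ± 0.674 with limonin, a log2 fold change of 0.26 ± 0.11 (adjusted p = 0.0918). Lss was called without MCD 1 (0.33, adjusted p = 0.0471), after each of the 3 other scalings of the libraries, and with length and GC trends taken out.

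Several of the later enzymes had similar estimates on the higher side. These were Msmo1, the methyl sterol oxidase, at 0.28 ± 0.15; Hsd17b7, a ketoreductase, at 0.32 ± 0.15; Sc5d, a desaturase, at 0.29 ± 0.13; and Dhcr7, the final reductase of one branch, at 0.27 ± 0.15. Their adjusted p ran from 0.102 to 0.19 (limma). With median-ratio scaling Hsd17b7 and Sc5d were called, at 0.45 and 0.44 (adjusted p 0.0419 and 0.0213), and Sc5d also without both limonin 5 and limonin 6, at 0.41 (adjusted p = 0.033). Ebp, the sterol isomerase, was at 0.17 ± 0.11 and was the most abundant of the sterol enzymes, at 41.1 ± 4.48 FPKM in MCD. Enzymes at or below 0.08 stood among them in the same chain. Fdft1, which makes squalene, was at -0.05 ± 0.13, and Cyp51, the lanosterol demethylase, at 0.08 ± 0.16. Nsdhl, a decarboxylating dehydrogenase, was at -0.13 ± 0.15. Tm7sf2, a reductase of the sterol ring, had the lowest estimate of the 11, at -0.28 ± 0.12, where 4 of the 6 limonin values were under every MCD value, and an adjusted p of 0.107 (limma). The estimate of Tm7sf2 was -0.14 with median-ratio scaling and -0.05 with length and GC trends taken out, where Nsdhl, at -0.19, was the lowest. On the scale of FPKM + 1, the interval of 10 of the 18 enzymes lay within 1.5-fold either way. Over all members this held for 15 of 28, beside 63.9% of all genes tested. The fold in FPKM itself is larger, most of all for low genes, so these counts do not bound it at 1.5-fold. For 9 of the 23 members not called, the interval of FPKM + 1 reached 1.5-fold on the higher side, so a change of that size was not left out.

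Within each group the enzymes were compared between libraries, beside the same counts over all genes. In the MCD group, MCD 1 was the highest library for 10 of the 18 enzymes and MCD 3 for 7, whereas MCD 1 was the highest for 29.0% of all genes tested and MCD 3 for 6.59%. MCD 2 was the lowest for 9 and MCD 5 for 5, and each lay above the group median for 1 of 18, beside 51.6% and 39.5% of all genes. In the limonin group, limonin 2, limonin 3 and limonin 6 lay above the group median for 14, 14 and 13 of 18, beside 41.7%, 71.1% and 26.8% of all genes, so that the count of limonin 3 was near its background. Limonin 4 and limonin 5 lay above it for 3 and 4 of 18, beside 56.9% and 34.1%. Limonin 6 was the highest for 6 of the 18 and for 3.14% of all genes. Enzymes of 1 animal share a library, so these counts describe the animals and carry no test. Summed over the 18 enzymes, the level was 290.3 to 400.2 FPKM in the MCD group and 327.1 to 392.0 with limonin, so the groups overlapped.

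**Figure D3:**
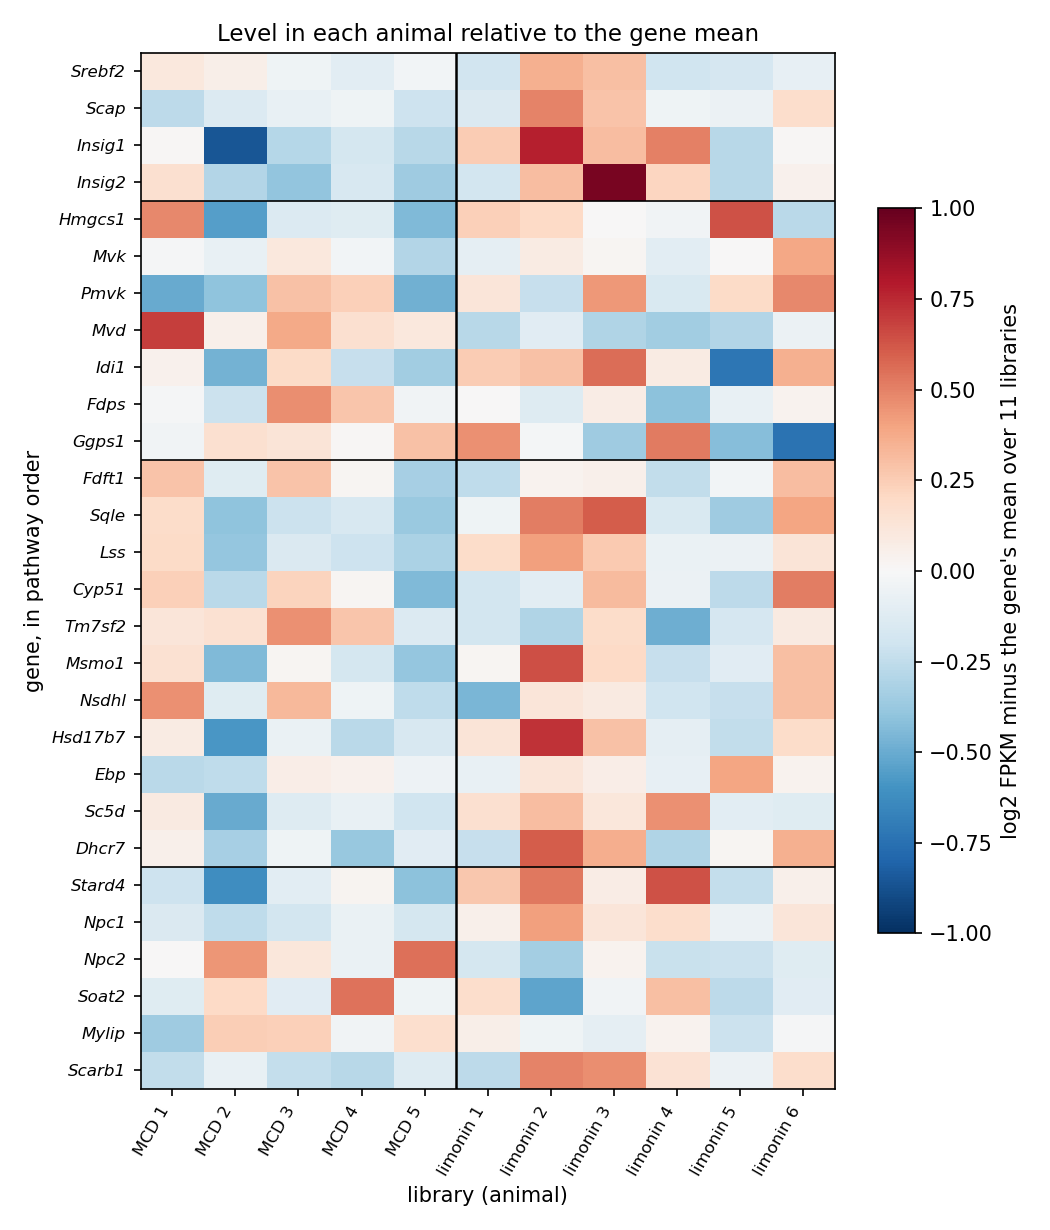
Each of the 28 genes in each library, as log2 FPKM minus the gene's mean over the 11 libraries (red above, blue below), with genes in pathway order and the vertical line between the MCD and limonin groups. MCD 2 and MCD 5 are low across most enzymes while MCD 1 and MCD 3 are higher. Limonin 4 and limonin 5 are low across most while limonin 2, limonin 3 and limonin 6 are higher. Over all genes tested, limonin 3 lay above its group median for 71.1% and limonin 5 for 34.1%.

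The promoters of the members were read for letters of known sites. SREBP proteins bind sterol response elements, and the factor NF-Y, which binds CCAAT, is a known partner at such promoters. RefSeq promoter windows (GRCm38.p6, 250 bases before to 50 after a start) matched 21 members by symbol with 27 windows. Fdps, Fdft1, Sqle, Stard4, Npc1, Soat2 and Scarb1 were without a window. The letters CCAAT, on either strand, were found in at least 1 window of 20 of the 21 members (95.2%), all but Scap, and in 42.6% of the 7713 tested genes that have a window. Counted by window the shares were 74.1% of 27 and 37.4% of all 32851. The letters TCACNCCA, the core of a sterol response element, were added to the search after the longer form had been seen to match 1 member. They were found in 3 of 21 members, Srebf2, Hmgcs1 and Msmo1 (14.3%), and in 4.67% of the tested genes that have a window. Counted by window the shares were 11.1% and, over tested genes, 3.97%. The longer TCACNCCAC, which contains them, was found in Hmgcs1 alone (4.76% of the 21) and in 1.53% of those tested genes. Both strands were read. A match describes letters in the window and is not shown to be a site.

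The 250 bases before the start are printed, 5′ to 3′ along each gene, for the called members that have a window (Insig1, Mvd and Npc2), for Hmgcs1, which has both kinds of letters, and for Mvk, which has the most CCAAT matches (5). Capitals mark CCAAT or its reverse complement ATTGG, and in Hmgcs1 also TCACCCCAC.
Insig1 (chr5:28071162-28071411, plus strand): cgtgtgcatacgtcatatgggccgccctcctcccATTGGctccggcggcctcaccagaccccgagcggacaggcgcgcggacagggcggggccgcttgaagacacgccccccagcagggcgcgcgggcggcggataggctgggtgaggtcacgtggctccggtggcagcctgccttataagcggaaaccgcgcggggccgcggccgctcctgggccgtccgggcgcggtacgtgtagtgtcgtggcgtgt
Hmgcs1 (chr13:119690101-119690350, plus strand): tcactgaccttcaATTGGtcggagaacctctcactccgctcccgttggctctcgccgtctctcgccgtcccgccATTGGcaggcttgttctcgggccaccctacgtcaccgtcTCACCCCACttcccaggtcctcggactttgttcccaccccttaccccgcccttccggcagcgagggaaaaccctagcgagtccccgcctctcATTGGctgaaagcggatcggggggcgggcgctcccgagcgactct
Mvk (chr5:114444019-114444268, plus strand): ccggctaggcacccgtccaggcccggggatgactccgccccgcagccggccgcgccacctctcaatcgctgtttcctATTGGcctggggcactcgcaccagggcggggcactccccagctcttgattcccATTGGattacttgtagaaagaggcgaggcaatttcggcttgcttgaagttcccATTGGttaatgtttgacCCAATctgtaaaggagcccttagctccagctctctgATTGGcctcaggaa
Mvd (chr8:122443423-122443672, minus strand): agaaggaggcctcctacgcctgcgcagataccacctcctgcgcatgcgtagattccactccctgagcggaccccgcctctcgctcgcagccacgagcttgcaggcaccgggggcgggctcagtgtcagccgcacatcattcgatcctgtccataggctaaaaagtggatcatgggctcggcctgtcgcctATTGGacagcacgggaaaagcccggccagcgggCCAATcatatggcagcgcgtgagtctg
Npc2 (chr12:84773113-84773362, minus strand): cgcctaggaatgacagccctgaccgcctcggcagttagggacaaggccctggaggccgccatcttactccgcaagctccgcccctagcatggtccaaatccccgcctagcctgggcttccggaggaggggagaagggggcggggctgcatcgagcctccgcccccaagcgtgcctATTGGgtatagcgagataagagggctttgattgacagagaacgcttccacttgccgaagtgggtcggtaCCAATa
Insig1, which rose, has 1 CCAAT match near the far end of the stretch, and Mvd, which fell, has 2 nearer the start. Neither has the letters TCACNCCA in its window. Npc2, which also fell, has 2 CCAAT matches. Hmgcs1 and Mvk, printed for their matches, have 3 and 5 before the start and were not called. Any relation of matches to calls was not tested.

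Of the 6 genes of sterol transport, esterification and lipoprotein receptors 2 rose and 1 fell (limma). Of all genes tested 7.24% rose and 18.7% fell. Stard4 encodes a soluble carrier of cholesterol between membranes and is a known SREBP2 target. Stard4 had 7.41, 5.55, 7.97, 8.72 and 6.44 FPKM in MCD 1 to 5, and 7.24 (lowest), 9.66 (median) and 13.3 (highest) with limonin. In 5 of 6 limonin libraries it lay above every MCD library, limonin 5 again being the exception. It rose by 0.43 ± 0.15 on the log2 scale (adjusted p = 0.0441, limma). The call was lost with no filter on low values, without both MCD 4 and MCD 5, and without any one of MCD 1, MCD 2, MCD 3, MCD 5, limonin 1, limonin 2, limonin 4 or limonin 6, with an adjusted p from 0.0522 to 0.126 in those 8 fits.

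Npc1 and Npc2 act in series in the lysosome: NPC2 picks up cholesterol released from lipoproteins and hands it to NPC1, a membrane protein that passes it out. Npc1 had 9.57, 8.85, 9.31, 10.1 and 9.37 FPKM in MCD 1 to 5, and 10.2 (lowest), 11.5 (median) and 14.02 (highest) with limonin. It was the one member with all 6 limonin libraries above every MCD library, as in 2.97% of all genes tested. It rose by 0.28 ± 0.09 on the log2 scale (adjusted p = 0.0374, limma). The call was lost with no filter, with length and GC trends taken out, without both MCD 4 and MCD 5, and without any one of MCD 1, MCD 2, MCD 3, MCD 5, limonin 2, limonin 4 or limonin 6, with an adjusted p from 0.0613 to 0.0991 in those 7 fits. Npc1 shares exon sequence with Rmc1 on the opposite strand, and whether reads were counted by strand is not known here.

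Npc2 went the other way. It had 18.2, 24.7, 19.7, 17.4 and 26.7 FPKM in MCD 1 to 5, and 14.4 (lowest), 15.9 (median) and 18.6 (highest) with limonin. In 5 of 6 limonin libraries it lay below every MCD library, and limonin 3 was the exception. Its mean was 21.3 ± 4.14 FPKM with water (SD, n = 5) and 16.2 ± 1.42 with limonin (SD, n = 6). The log2 fold change was -0.36 ± 0.12 (adjusted p = 0.0364, limma). The call was lost with no filter, with median-ratio or equal-sum scaling, without both MCD 4 and MCD 5 or both limonin 5 and limonin 6, and without any one of MCD 2, MCD 3, MCD 5, limonin 2, limonin 4 or limonin 6 (adjusted p from 0.0508 to 0.108 in those 6 fits).

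Macrophages, which take up and digest lipid, also express Npc2, and some of their markers fell in the same animals. Of 7 macrophage and Kupffer cell markers 3 fell, among them Cd68 and Csf1r, 0 rose and 4 were not called (limma). Of all genes tested 18.7% fell. With 1 library left out, 1 (without MCD 2) to 4 of the markers fell. The summed level of the 7 markers ran from 53.96 (MCD 1) to 222.4 FPKM in the MCD group and from 53.98 to 85.35 with limonin. The highest sums were those of MCD 5 (222.4) and MCD 2 (141.4), the libraries that also had the highest Npc2. MCD 1 had the lowest sum of all libraries (53.96), below that of MCD 4 (73.07). Its Npc2, at 18.2 FPKM, was above that of MCD 4, at 17.4. All 7 markers were above 0 in every library. In bulk liver, fewer cells of a type and less RNA per cell cannot be told apart, and the part of these cells in the level of Npc2 was not tested. Of all genes tested 7.24% rose. Of 7 tested hepatocyte markers 3 rose, among them Alb, 0 fell and 4 were not called. Among the latter was Apoa1, with a log2 fold change of -0.65 (adjusted p = 0.055, limma). The markers summed to 25860 to 32970 FPKM in MCD and 27750 to 42480 with limonin, with Alb the largest part. In the fits without 1 library 1 to 3 of them were called higher and 0 or 1 lower.

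The remaining transport genes were not called. Scarb1, the receptor through which the liver takes cholesterol from HDL, had 19.4, 21.9, 19.5, 18.99 and 21.1 FPKM in MCD 1 to 5, and 19.3 (lowest), 25.7 (median) and 32.5 (highest) with limonin. All limonin libraries but limonin 1 lay above every MCD library, and the log2 fold change was 0.34 ± 0.13 (adjusted p = 0.0595, limma). Scarb1 was called without limonin 1 or limonin 5 (adjusted p 0.0169 and 0.0419), with weights per library, after each of the 3 other scalings and with length and GC trends taken out. Its adjusted p over all alternatives fitted by limma ran from 0.0101 to 0.155. Soat2, which esterifies cholesterol for lipoproteins in hepatocytes, was at -0.16 ± 0.15, with MCD 4 the highest library at 39.1 FPKM and limonin 2 the lowest at 18.6. Mylip, a ubiquitin ligase induced by oxysterols that degrades lipoprotein receptors, was at -0.08 ± 0.10, with 3.26 ± 0.535 FPKM in MCD and 3.02 ± 0.204 with limonin.

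The authors' deposited table, with its own test, gave 10 of the 28 members a q-value under 0.05, all higher, and Mvd and Npc2 were not among them (q 0.0888 and 0.248). By that q of the authors' deposited table, 8.57% of all genes were higher and 7.44% lower, and among the genes tested here 17.6% and 12.1%. Of the 28, Insig1 alone carried the authors' mark of significance, with a deposited ratio of 1.51 and q of 0.0023. Npc1, with a deposited ratio of 1.24 and q of 0.00244, did not carry it. The mark therefore does not rest on a q under 0.05 alone. Beside the calls made here, the authors' deposited table added Scap, Insig2, Sqle, Lss, Hsd17b7, Sc5d and Scarb1 on the higher side.

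The scaling of the libraries set how many members were called. With median-ratio scaling 9 members were called higher and 0 lower, beside 17.4% and 12.9% of all genes. With quantile normalization 5 were higher and 2 lower, beside 17.3% and 15.4%. With equal summed FPKM 5 were higher and 1 lower, beside 10.4% and 10.6%. Removal of length and GC trends gave 7 higher and 1 lower, beside 14.9% and 12.5%. The distance between the median of the 28 and the median of all genes was 0.32 in the deposited FPKM, and 0.33, 0.28, 0.33 and 0.20 in these 4 alternatives. Insig1 and Stard4 were called higher under all 5. Mvd had a negative log2 fold change in all 5, from -0.47 to -0.21.

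**Figure D4:**
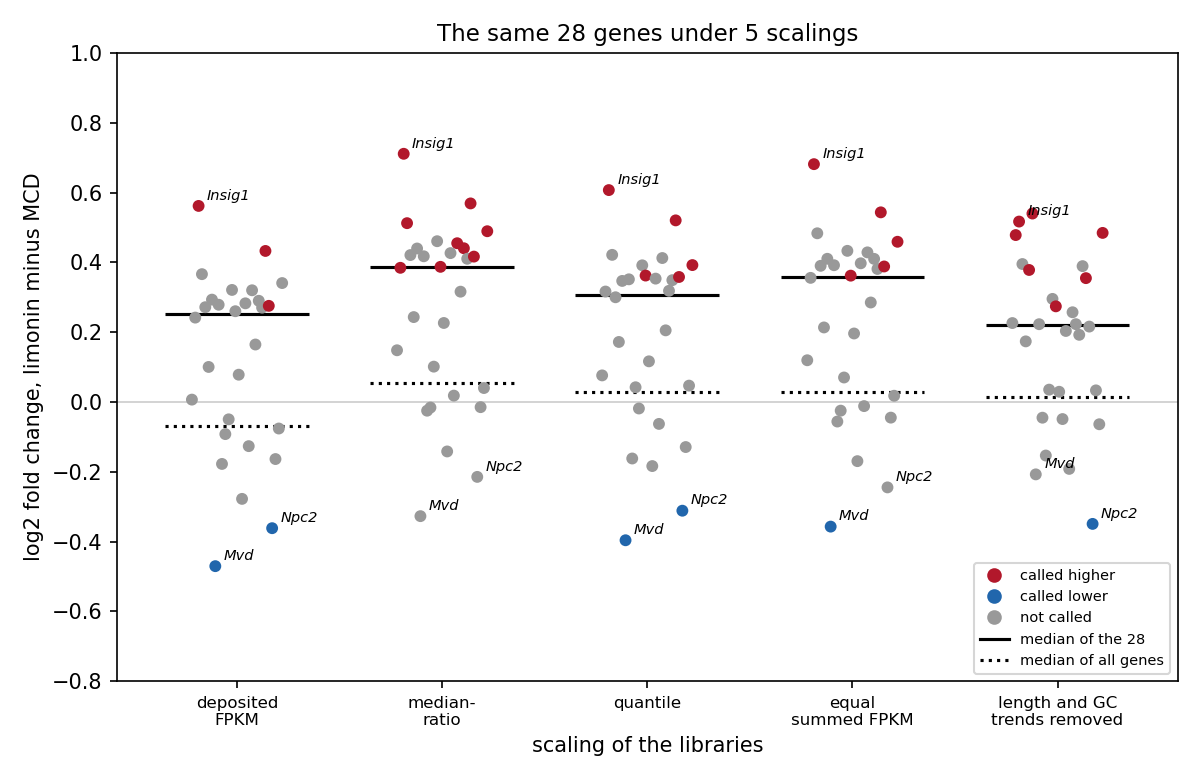
Log2 fold changes (limonin minus MCD) of the 28 genes under 5 scalings of the libraries; each point is a gene (red called higher, blue called lower, grey not called), solid lines are medians of the 28 and dotted lines medians of all tested genes. The median of the 28 lies above that of all genes in each, by 0.20 to 0.33, Insig1 stays called higher and Mvd stays below 0, while the number of called genes changes from 5 to 9.

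Around the pathway stand 51 further genes of sterol handling, of which 50 were in the table and 44 were tested. Of these 8 rose, 2 fell and 34 were not called (limma), beside 7.24% and 18.7% of all genes tested. With median-ratio scaling 13 were higher and 0 lower, beside 17.4% and 12.9% of all genes. Removal of length and GC trends gave 13 and 2, beside 14.9% and 12.5%. No filter gave 4 and 0, where 2190 of 31280 genes were called, 18.8% of them higher. Without 1 library the counts of these related genes ran from 4 (without MCD 2) to 8 and from 0 (without MCD 2) to 3. The median log2 fold change was 0.08. Of the 10 other SREBP targets, which included genes of fatty acid synthesis and desaturation, 0 rose and 0 fell by limma, 3 had an unadjusted p under 0.05 (1 higher and 2 lower, beside 39.8% of all genes tested), and without 1 library up to 1 was called in each direction.

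Among the genes of SREBP processing and sterol-regulated protein degradation, Rnf139 encodes a ubiquitin ligase of the endoplasmic reticulum. Rnf139 was at 3.34 ± 0.318 FPKM with water (SD, n = 5) and 5.09 ± 0.816 with limonin (SD, n = 6). It rose by 0.48 ± 0.11 on the log2 scale (adjusted p = 0.00852, limma) and kept its call in all 11 fits without 1 library.

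Of 7 genes of the oxysterol receptors LXR and of sterol efflux 3 rose and 2 fell (limma), beside 7.24% and 18.7% of all genes tested. With no filter on low values 1 (Abcg8) rose and 0 fell, where 2190 of 31280 genes were called, 18.8% of them higher. With median-ratio scaling 3 rose and 0 fell, beside 17.4% and 12.9% of all genes. Abcg5 and Abcg8 form the exporter of sterols into bile. Abcg8 had 21.9, 24.2, 29.2, 36.6 and 22.01 FPKM in MCD 1 to 5 and 34.2 (lowest), 50.2 (median) and 61.2 (highest) with limonin. It rose by 0.84 ± 0.16 on the log2 scale (adjusted p = 0.00377, limma) and kept its call in all 11 fits without 1 library. Abcg5 rose by 0.53 ± 0.18 on the log2 scale (adjusted p = 0.0447), and 9 of the 11 fits, all but those without MCD 4 or limonin 3, lost this call (adjusted p up to 0.11). Abca1, which loads cholesterol onto apolipoprotein A-I, rose from 2.70 ± 0.458 to 5.57 ± 2.49 FPKM, with limonin 2 and limonin 4 the highest at 8.30 and 8.45. Its call was lost without MCD 2, MCD 3, MCD 4, MCD 5, limonin 1, limonin 2 or limonin 4 (adjusted p up to 0.0699, limma).

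The 2 that fell were Nr1h2, which encodes LXR-beta, at -0.40 ± 0.12 and Abcg1, an efflux transporter abundant in macrophages, at -0.35 ± 0.11. The call of Nr1h2 was lost without MCD 1 or MCD 2 (adjusted p 0.0581 or more), and that of Abcg1 without MCD 2, MCD 5, limonin 2, limonin 4 or limonin 6 (adjusted p up to 0.106). Both calls were also lost with no filter, with median-ratio and equal-sum scaling and with length and GC trends taken out, and that of Abcg1 with quantile normalization and without either pair of libraries left out together. MCD 5 and MCD 2 were the highest libraries for Abcg1, at 2.76 and 2.68 FPKM. They were also the highest for the summed level of the macrophage markers, whose part was not tested.

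Of all genes tested 7.24% rose, and in 2.97% all 6 limonin libraries lay above every MCD library. Of 8 tested genes of sterol esters and intracellular transport 1 rose (limma). Lcat, the plasma enzyme that esterifies cholesterol in HDL, had a mean of 148.8 ± 19.4 FPKM with water (SD, n = 5) and 215.1 ± 21.4 with limonin (SD, n = 6). It rose with no overlap of the groups (log2 fold change 0.53 ± 0.11, adjusted p = 0.00525, limma). Of 4 genes of bile acid synthesis from cholesterol 1 rose, Cyp7b1, from 4.34 ± 0.304 to 7.84 ± 1.91 FPKM, also with no overlap (0.70 ± 0.14, adjusted p = 0.004, limma). Both kept their calls in all 11 fits without 1 library. Of 6 tested genes of the isoprenoid side branches 1 rose, the prenyltransferase subunit gene Fnta, at 0.29 ± 0.10 (adjusted p = 0.0473, limma), and 9 of the 11 fits, all but those without MCD 4 or limonin 5, lost this call (adjusted p up to 0.135).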

How the data were processed

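The members and the gene lists were chosen with earlier results of these data known. Per the labels' protocols, libraries were made from poly(A) RNA, and the second strand carried dUTP. Per the submitters' processing notes, reads went through cutadapt 1.9, HISAT2 2.0.4 and StringTie 1.3.4d. Those notes name GRCh38, the human genome, although the identifiers are those of mouse. The deposited table holds FPKM for each library, per the file headers. The authors deposited a ratio of group means (fold). The deposited log2 of that ratio stands beside it. Each gene also has a deposited p-value and a q-value. The authors' test and any use of strand in counting are not given in the sources read. FPKM hold no counts, so counting error cannot be given.

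Tests ran on log2(FPKM + 1), a scale that makes changes of low genes look smaller, for the 10489 genes that reached 1 FPKM in 5 or more libraries. The tool was limma 3.58.1 under R 4.3.3, two-sided, with trend and robust settings and Benjamini-Hochberg adjustment at 0.05. The procedure was tested on simulated data. All 28 members were named, and from each list of other sterol genes those called, up to 4 in each direction, apart from a result that is not reported here. Positions are from GENCODE M21 (GRCm38), which held 31191 of the 31280 identifiers. Exons of 10 members overlap those of another gene, among them Fdft1 with Ctsb and Cyp51 with Akap9 on the opposite strand and Tm7sf2 with Vps51 on the same strand. The alternatives comprised omitting the filter, raising it to 5 FPKM, pseudocounts of 0.1 and 0.01, 3 scalings, removal of length and GC trends, a fit with no trend, weights per library, a block on the replicate number, libraries left out, and the authors' calls.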

Additional observations from a re-analysis of the deposited data

Results flagged for a closer look

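Among 56 groups of values (28 genes in each of the 2 groups), 2 had a library whose gap to the nearest other library was large against the range of its group. Chance alone would mark about 1 in 20 such groups. Insig2, the SCAP anchor, had 34.6 FPKM in limonin 3, and the next limonin library was at 22.2. Mvk, mevalonate kinase, had 14.8 FPKM in limonin 6, and the next was at 11.95.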

How the results depend on the processing

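Members called higher (3) and lower (2) numbered 0 and 1 with no filter, 9 and 0 with median-ratio scaling, 5 and 2 with quantile normalization, 5 and 1 with equal summed FPKM, 7 and 1 with length and GC trends taken out, 0 and 1 without both MCD 4 and MCD 5, 5 and 1 without both limonin 5 and limonin 6, and 10 and 0 by the authors' deposited q. With 1 library left out they ran from 0 to 5 higher and from 1 to 2 lower. Genes called over the whole table (2716) numbered 1424 with the filter at 5 FPKM, where fewer genes were tested (5297), 5010 by the authors' deposited q over 31280 genes, and 1408 (without MCD 2) to 3062 (without limonin 5) with 1 library left out. The filter at 5 FPKM, both lower pseudocounts and the fit with no trend called the same 5 members. The cause of the other shifts was not tested.

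The replicate numbers did not pair the libraries: 1 of 5 same-numbered pairs had a correlation of deviations over 0.1, and 1 of 5 MCD libraries correlated best with its own number. With the replicate number as a block, 1256 genes, 0 members higher and 1 member lower (Mvd) were called.

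Of the members, 7 that were called under no setting of limma changed sign. Over all settings Srebf2 ran from -0.058 to 0.226, Ggps1 from -0.204 to 0.042, Fdft1 from -0.168 to 0.101, Cyp51 from -0.026 to 0.226, Nsdhl from -0.264 to 0.018, Soat2 from -0.237 to 0.033 and Mylip from -0.152 to 0.047. Srebf2 was at -0.016 with weights per library, at -0.033 without both MCD 4 and MCD 5 and between -0.058 and 0.044 with 1 library left out. Ggps1 was at 0.042 with quantile normalization and 0.03 without both limonin 5 and limonin 6. Fdft1 was at 0.10 with median-ratio scaling, 0.07 with equal summed FPKM and 0.035 without length and GC trends, and between -0.136 and 0.014 with 1 library left out. Cyp51 was at -0.013 in the block fit, -0.026 without both MCD 4 and MCD 5, and between -0.016 and 0.145 with 1 library left out. Nsdhl was at 0.018 with median-ratio scaling and Soat2 at 0.033 without length and GC trends. Mylip was at 0.04, 0.047 and 0.018 with median-ratio, quantile and equal-sum scaling. Ggps1 and Mylip were not tested at the filter of 5 FPKM. The FPKM carry no counting error, and the lowest member, Ggps1, lay near the 1 FPKM of the filter.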

Other observations

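Some genes of sterol handling did not pass the filter on low values and were not tested. Soat1, the cholesterol-esterifying enzyme of macrophages and other cells, had 0.989, 1.032, 0.636, 0.681 and 1.997 FPKM in MCD 1 to 5. It had at most 0.588 FPKM in the limonin group, so its groups did not overlap. Those of its liver counterpart Soat2 overlapped. Gramd1b, a carrier of cholesterol from the plasma membrane, lay between 0.447 and 1.08 FPKM in the MCD group and between 0.304 and 0.426 in the other. Pdss2, a subunit of the synthase for the side chain of coenzyme Q, was the higher with limonin, at 0.878 to 1.33 FPKM against 0.564 to 0.802. Among the genes that were tested, all 6 limonin libraries lay below every MCD library in 8.33% and above every one in 2.97%. Soat1, Gramd1b and Pdss2 were picked out after their values were seen, and the values are given as a description.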
